A study of Mus musculus with 69 samples.

Results

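Paraquat (PQ) is a herbicide that takes an electron from cellular reductases and passes it to oxygen, so that superoxide is formed again and again. The liver meets an oral dose early and holds antioxidant enzymes, cytochromes P450 and conjugating enzymes that handle foreign compounds. It is also the main site where fatty acids and cholesterol are made from acetyl-CoA, a synthesis that uses NADPH, the same reducing agent that the glutathione system uses against oxidants. The comparison described here is that of livers taken 1 day after PQ at 50 mg/kg with livers of vehicle mice of the same day. Its 10 arrays, 5 in each group, were chosen by their titles from the 69 arrays analysed here, and all genes entered the tests.

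All mice were male C57BL/6, 10 weeks old, given 1 oral gavage of compound or vehicle. Each array held liver RNA of 1 mouse, from the middle of the left lateral lobe. The vehicle was that labelled for acetaminophen (APAP), and 1 vehicle set per day served every compound. The other PQ groups used below had 12.5 mg/kg (5 mice) or 25 mg/kg (4 mice) at 1 day, or 50 mg/kg at 2 days (5 mice). Vehicle at 2 days (5 mice) and, to place single arrays, APAP at 300 mg/kg at 1 day (5 mice) were also used. The fit behind the tests also held isoniazid mice, given 22, 44 or 88 mg/kg at 1 day or 88 mg/kg at 2 days (5 mice each). The search for nearest arrays and a fit of all arrays further held APAP at 168.75 and 225 mg/kg at 1 day and 300 mg/kg at 2 days (5 mice each). Values are log2 signals, on which a difference of 1 is a doubling, and levels of different genes are not compared because each probe set has its own scale. In whole liver, fewer cells of a type and less RNA per cell cannot be told apart.

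The array labelled as PQ replicate 1 stood apart from the other 4 PQ arrays. Over all genes its median Euclidean distance was 32.3 log2 units to the APAP 300 mg/kg arrays, 79.1 to the other PQ arrays and 78.4 to the vehicle arrays. Its 5 nearest arrays of the whole series were all from APAP mice. The nearest array to PQ replicate 4 was also from an APAP mouse (225 mg/kg, distance 29.5), followed by isoniazid and PQ arrays. The other 4 PQ arrays lay at median distances of 28.2 to 34.6 from the vehicle arrays. In PQ replicate 1, 529 genes were more than 1 log2 unit above every vehicle array and 326 were more than 1 below. The other 4 PQ arrays had 0 to 31 such genes above and 0 to 12 below. Each result is therefore given with all 5 PQ arrays and without replicate 1.

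**Figure D1:**
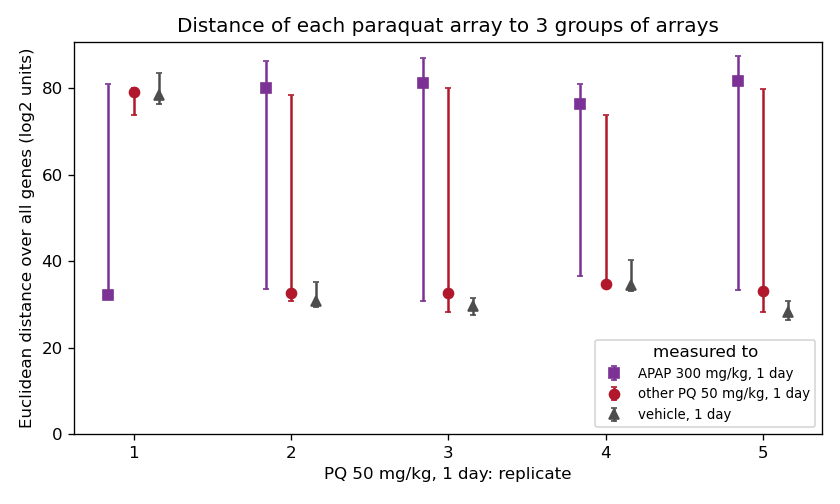
Euclidean distance over all genes (log2 units, vertical axis) from each PQ 50 mg/kg array at 1 day (replicates 1 to 5, horizontal axis) to the arrays of 3 groups; symbols are medians and bars run from the nearest to the farthest array. Replicate 1 has its median to the APAP arrays at 32.3 and its median to vehicle at 78.4, while the other 4 PQ arrays have medians to vehicle of 28.2 to 34.6.

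The liver identity of both groups was plain in hepatocyte markers. Alb, the gene of serum albumin, measured 14.19 to 14.28 in PQ livers and 14.18 to 14.34 in vehicle livers. The mean over 19 hepatocyte genes was 12.27 to 12.31 on PQ arrays and 12.24 to 12.36 on vehicle arrays. Markers of pancreatic acinar cells averaged 3.31 to 3.76 in PQ livers and 3.59 to 3.78 in vehicle livers.

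A small set of genes fell after PQ, and none rose past the test. With all 5 PQ arrays 6 genes were called (limma, adjusted p under 0.05), all lower after PQ, which is 0.0347% of the 17306 probe sets. They were the cytochromes P450 Cyp2c55 and Cyp3a44, the carboxylesterase Ces2e, and the fat synthesis genes Acaca, Scd1 and Me1. Without replicate 1 Cyp2c55 and Cyp3a44 remained, 0.0116% of probe sets, both again lower. At an unadjusted p under 0.05 there were 2051 genes with all 5 arrays (922 higher, 1129 lower, 11.9%) and 1001 without replicate 1 (413 higher, 588 lower, 5.78%), where chance alone gives about 865. The arrays of PQ and vehicle did not overlap for 217 genes with all 5 PQ arrays (1.25%) and for 415 without replicate 1 (2.4%). With 1 array fewer, groups fail to overlap more often by chance, so these shares cannot be compared with each other. The number of called genes depended on single arrays. With all 5 arrays as the start it was 26 without PQ replicate 3, 100 without PQ replicate 5, and 3 without vehicle replicate 1 or vehicle replicate 3. With replicate 1 already left out it was 0 when PQ replicate 2, PQ replicate 4 or vehicle replicate 1, 3 or 5 was also left out, 1 without vehicle replicate 2 or 4, and 7 without PQ replicate 5. In a fit of only the 10 arrays of both groups 0 genes were called, and without replicate 1 that fit called 6.

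Cyp2c55, a P450 of the Cyp2c family whose gene is inducible by foreign compounds in mouse liver, gave the largest fall among the called genes. Its log2 signal was 4.84, 6.20, 7.07, 6.25 and 7.18 in PQ replicates 1 to 5, against 7.99, 8.38, 8.10, 7.96 and 8.19 in vehicle livers. Every PQ array lay below every vehicle array, and replicate 1 was the lowest. The log2 change was -1.82 (SE 0.29, limma adjusted p = 0.00226) with all 5 arrays and -1.45 (SE 0.26, adjusted p = 0.0229) without replicate 1, which is a 2.73-fold lower signal.

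Cyp3a44, a female-biased member of the Cyp3a family, measured 6.08, 6.53, 6.15, 6.39 and 6.61 in PQ livers, against 7.12, 6.83, 7.55, 7.09 and 7.14 in vehicle livers. The groups did not overlap, and replicate 1 was close to the other PQ arrays. The log2 change was -0.79 (SE 0.13, limma adjusted p = 0.00382) with all 5 arrays and -0.73 (SE 0.14, adjusted p = 0.0448) without replicate 1.

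Ces2e, a carboxylesterase that splits ester bonds of drugs and lipids, measured 9.23, 9.69, 9.80, 9.48 and 9.89 in PQ livers, against 10.26, 10.32, 10.38, 10.18 and 10.24 in vehicle livers. The groups did not overlap. The log2 change was -0.66 (SE 0.12, limma adjusted p = 0.00679) with all 5 arrays, and -0.56 (SE 0.12, adjusted p = 0.0714) without replicate 1, where it was no longer called.

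**Figure D2:**
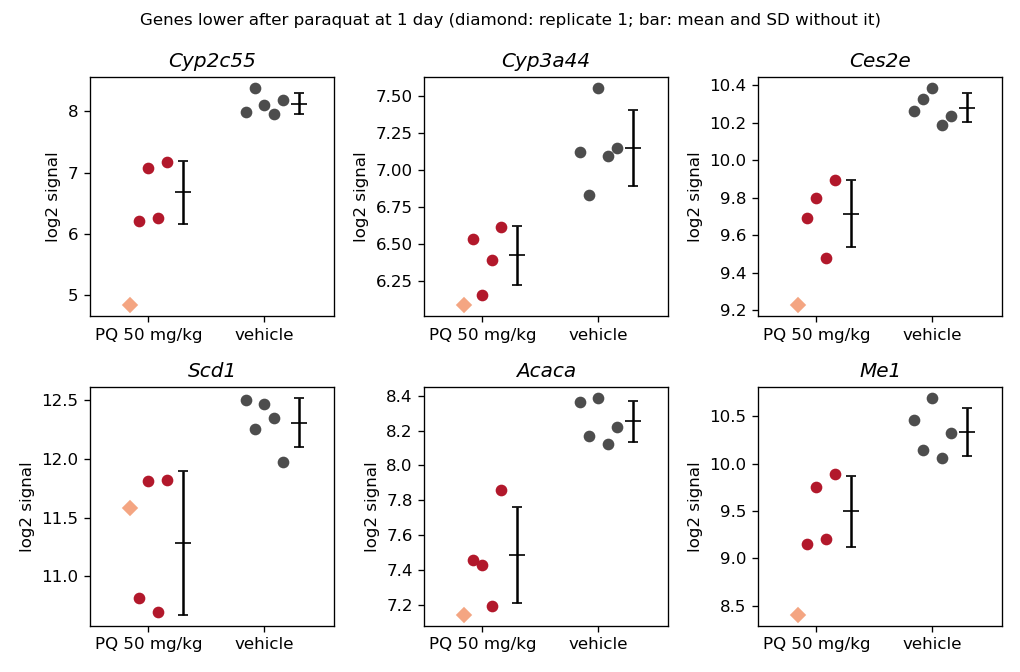
Log2 signal (vertical axes) of the 6 genes called with all 5 arrays, for each PQ 50 mg/kg and vehicle liver at 1 day; the diamond is PQ replicate 1 and the black bar is the mean and SD without it. In each of the 6 genes every PQ array lies below every vehicle array, for Cyp2c55 at 4.84 to 7.18 against 7.96 to 8.38.

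Over the whole list of xenobiotic P450s and receptors, values went both ways without replicate 1. Of 31 measured members, Cyp2c55 and Cyp3a44 were the 2 called lower, and 0 were called higher, both with and without replicate 1. The shares of all probe sets called were 0.0347% and 0.0116%. At an unadjusted p under 0.05 by limma 0 were higher in either comparison, and 8 were lower with all 5 arrays and 4 without replicate 1. Of all probe sets 6.52% and 3.4% were lower by that measure. In 3 members every PQ array was below every vehicle array in both comparisons, beside 0.74% and 1.29% of all probe sets. Without replicate 1 the median log2 change of the list was 0.00, with 16 members above 0 and 15 below, and with all 5 arrays it was -0.10, with 8 above 0 and 23 below. Over all genes the medians were -0.01 and -0.01. Cyp3a11, the most studied Cyp3a of male mouse liver, differed by -0.15 (SE 0.05) without replicate 1 and was not called. Cyp2e1, the P450 of ethanol and APAP oxidation, differed by 0.02 (SE 0.04). Cyp2b10, a target of the receptor CAR, differed by -0.57 and was not called.

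Genes of fatty acid synthesis had, of all gene lists examined, the median farthest from 0 in both comparisons. Of 24 listed genes 22 were measured, and their median log2 change was -0.50 with all 5 arrays (20 of 22 below 0) and -0.40 without replicate 1 (18 of 22 below 0). With all 5 arrays 3 members were called lower, and without replicate 1 none was, while 14 and 10 members had an unadjusted p under 0.05, all lower, a class that held 6.52% and 3.4% of all probe sets. In both comparisons 9 of the 22 had every PQ array below every vehicle array, beside 0.74% and 1.29% of all probe sets. These were Acaca, Scd1, Me1, Fasn, Elovl6, Pklr, Acacb, Acly and Thrsp, of which Elovl6, Pklr, Acacb, Acly and Thrsp are named because their values were seen not to overlap.

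Acaca, acetyl-CoA carboxylase, makes malonyl-CoA in the first committed step of fatty acid synthesis. It measured 7.14, 7.46, 7.43, 7.19 and 7.86 in PQ livers, against 8.37, 8.17, 8.39, 8.12 and 8.22 in vehicle livers. All PQ arrays were lower, replicate 5 the least so. The log2 change was -0.84 (SE 0.15, limma adjusted p = 0.0093) with all 5 arrays and -0.77 (SE 0.16, adjusted p = 0.0714) without replicate 1.

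Scd1, the stearoyl-CoA desaturase that makes oleic acid, measured 11.58, 10.82, 11.81, 10.70 and 11.82 in PQ livers, against 12.50, 12.25, 12.47, 12.35 and 11.97 in vehicle livers. Replicates 2 and 4 were the lowest PQ arrays, and the nearest arrays of the groups, PQ replicate 5 and vehicle replicate 5, were 11.82 and 11.97. The log2 change was -0.96 (SE 0.20, limma adjusted p = 0.0461) with all 5 arrays and -1.02 (SE 0.21, adjusted p = 0.0714) without replicate 1, where it was no longer called.

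Me1, the cytosolic malic enzyme that supplies NADPH and is also a target of the oxidant sensor NRF2, measured 8.41, 9.15, 9.75, 9.21 and 9.89 in PQ livers, against 10.46, 10.14, 10.69, 10.06 and 10.32 in vehicle livers. Replicate 1 was the lowest. The log2 change was -1.06 (SE 0.22, limma adjusted p = 0.0461) with all 5 arrays and -0.84 (SE 0.21, adjusted p = 0.402) without replicate 1.

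Fasn, fatty acid synthase, which builds palmitate from malonyl-CoA, was not called. It measured 9.58, 9.78, 9.98, 10.05 and 9.96 in PQ livers, against 11.26, 10.72, 10.98, 10.50 and 10.73 in vehicle livers, with no overlap. The log2 difference was -0.97 (limma adjusted p = 0.105) with all 5 arrays and -0.90 (adjusted p = 0.451) without replicate 1.

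Elovl6, which lengthens palmitate, measured 8.58, 9.43, 8.96, 9.29 and 9.73 in PQ livers, against 10.45, 10.13, 10.26, 10.03 and 10.16 in vehicle livers. Pklr, the liver pyruvate kinase of glycolysis, measured 5.78, 7.33, 7.17, 7.13 and 7.50 in PQ livers, against 8.26, 7.88, 8.17, 7.91 and 7.94 in vehicle livers. Neither was called, and their differences without replicate 1 were -0.85 and -0.75. For Acacb, the mitochondrial acetyl-CoA carboxylase, the PQ arrays measured 6.39, 7.67, 8.09, 7.82 and 8.33, against 8.80, 8.66, 8.67, 8.76 and 8.35 in vehicle livers, a difference without replicate 1 of -0.67.

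Thrsp, a lipogenic gene named for its response to thyroid hormone, shows how far replicate 1 moved some means. It measured 8.95 in replicate 1 and 12.31, 11.99, 12.07 and 12.03 in the other PQ livers, against 12.69, 12.59, 12.46, 12.38 and 12.49 in vehicle livers. The difference was -1.05 with all 5 arrays and -0.42 without replicate 1. Acly, ATP citrate lyase, which supplies acetyl-CoA, differed by -0.46 in both comparisons. The transcription factors of the list differed less. Srebf1, the gene of SREBP-1, differed by -0.05 (SE 0.18) and Mlxipl, the gene of the glucose sensor ChREBP, by -0.33 (SE 0.13) without replicate 1, and neither was called.

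The mean over the 22 lipogenic genes, taken for each array as the difference from the vehicle mean, was -1.11, -0.52, -0.33, -0.54 and -0.24 in PQ replicates 1 to 5, against 0.12, -0.03, 0.12, -0.08 and -0.13 in vehicle livers. All 5 PQ arrays were below all 5 vehicle arrays in this summary, and replicate 1 was the farthest.

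Genes of cholesterol synthesis lay on the other side. Of 24 listed genes 16 were measured, 13 of them above 0 in both comparisons, with median log2 differences of 0.33 with all 5 arrays and 0.23 without replicate 1. None was called; at an unadjusted p under 0.05 there were 9 higher and 1 lower with all 5 arrays, and 5 higher and 0 lower without replicate 1. Of all probe sets 5.33% and 2.39% were higher by that measure. In 2 members, Fdft1 and Cyp51, every PQ array was above every vehicle array in both comparisons, beside 0.514% of all probe sets with all 5 arrays and 1.1% without replicate 1. The mean over the 16 genes, as a difference from the vehicle mean, was 0.79, 0.05, 0.38, 0.38 and 0.07 in PQ replicates 1 to 5. Vehicle livers had 0.13, 0.04, -0.03, 0.02 and -0.15. PQ replicates 2 and 5 thus lay within the vehicle range, unlike in the lipogenic genes.

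Fdft1, squalene synthase, the first enzyme that serves sterols alone, measured 10.81, 9.99, 10.37, 10.48 and 9.98 in PQ livers, against 9.95, 9.89, 9.78, 9.73 and 9.62 in vehicle livers. Its difference was 0.53 (SE 0.12, limma adjusted p = 0.103) with all 5 arrays and 0.41 (SE 0.12, adjusted p = 0.496) without replicate 1. Cyp51, the lanosterol demethylase, measured 10.49, 8.93, 9.32, 9.24 and 9.02 in PQ livers, against 8.75, 8.76, 8.74, 8.72 and 8.65 in vehicle livers. Replicate 1 was more than 1 log2 unit above the other PQ arrays for Cyp51, and the difference was 0.68 with it and 0.40 without it. Msmo1, which oxidises methyl groups of sterol precursors, measured 12.13, 11.69, 11.89, 12.15 and 11.34 in PQ livers, against 11.27, 11.57, 11.20, 11.21 and 11.08 in vehicle livers. Its arrays overlapped, and its difference was 0.50 (SE 0.16) without replicate 1.

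**Figure D3:**
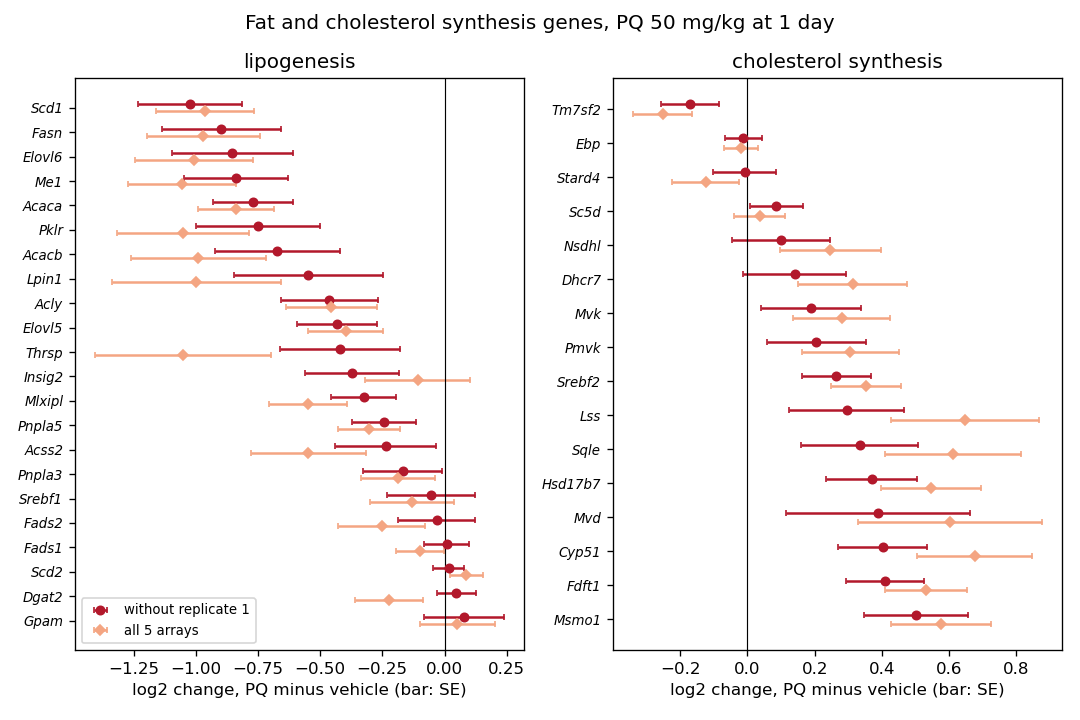
Log2 change of PQ 50 mg/kg minus vehicle at 1 day (horizontal axes, bars are SE) for the 22 measured lipogenic genes and the 16 measured cholesterol synthesis genes; circles leave out PQ replicate 1 and diamonds include it. The medians without replicate 1 are -0.40 for lipogenesis and 0.23 for cholesterol synthesis.

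Promoters of both groups are shown because their genes lay on opposite sides, and sterol and fat synthesis genes are known for promoters in which the factor NF-Y binds CCAAT boxes beside sterol regulatory elements. The windows run from 250 bases before to 50 bases after the start of transcription, from RefSeq on GRCm38.p6, and capitals mark CCAAT on either strand. Fasn (chr11:120824498-120824797, minus strand) held 3 matches, 2 of which share bases. Msmo1 (chr8:64733529-64733828, minus strand) held 3, and Cyp51 (chr5:4104648-4104947, minus strand) held 1.
Fasn: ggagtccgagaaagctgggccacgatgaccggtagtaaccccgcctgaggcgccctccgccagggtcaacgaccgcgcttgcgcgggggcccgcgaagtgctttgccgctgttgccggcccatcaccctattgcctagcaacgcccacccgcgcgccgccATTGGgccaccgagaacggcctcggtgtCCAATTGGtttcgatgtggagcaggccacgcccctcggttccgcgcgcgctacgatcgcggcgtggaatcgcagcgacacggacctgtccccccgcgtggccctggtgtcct
Msmo1: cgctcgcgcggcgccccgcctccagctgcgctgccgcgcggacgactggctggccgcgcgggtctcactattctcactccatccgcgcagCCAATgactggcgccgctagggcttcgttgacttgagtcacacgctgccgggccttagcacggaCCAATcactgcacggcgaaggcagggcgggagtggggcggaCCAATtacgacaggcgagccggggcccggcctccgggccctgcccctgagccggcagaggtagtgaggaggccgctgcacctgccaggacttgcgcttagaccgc
Cyp51: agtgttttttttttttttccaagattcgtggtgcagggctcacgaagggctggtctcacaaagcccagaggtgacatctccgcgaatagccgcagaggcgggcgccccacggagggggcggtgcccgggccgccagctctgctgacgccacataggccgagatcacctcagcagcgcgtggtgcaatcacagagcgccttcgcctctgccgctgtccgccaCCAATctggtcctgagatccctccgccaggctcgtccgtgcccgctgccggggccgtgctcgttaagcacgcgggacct

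CCAAT stood in a window of 14 of the 18 lipogenic genes with an entry and of 13 of the 13 cholesterol synthesis genes, whereas 41.1% of 27025 genes held it. The letters TCACNCCAC of a sterol regulatory element, searched on both strands and unable to contain CCAAT, stood in 1 of 18 and 0 of 13, against 1.44% of all genes. A match is a description of the letters only.

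No NRF2 target was called higher, and without replicate 1 more of them had lower than higher values. NRF2 is a transcription factor that oxidants release and that induces glutathione, thioredoxin and NADPH enzymes. Of its 31 measured targets, 1 was called lower (Me1) and 0 higher with all 5 arrays, and 0 were called without replicate 1. At an unadjusted p under 0.05 there were 3 higher and 5 lower with all 5 arrays, and 1 higher and 8 lower without replicate 1. Of all probe sets, 5.33% were higher and 6.52% lower by that measure with all 5 arrays, and 2.39% and 3.4% without replicate 1. In 2 targets with all 5 arrays and 4 without replicate 1 every PQ array was below every vehicle array, beside 0.74% and 1.29% of all probe sets, and in 0 targets every PQ array was above. The 4 were Me1, which is also in the lipogenesis list, Gstm4, Gsr and Tkt, of which Gsr and Tkt are named after their values were seen. The list median was -0.02 and -0.09, where all genes had -0.01 and -0.01.

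Hmox1, heme oxygenase-1, measured 8.11 in replicate 1 and 5.89, 5.96, 6.62 and 5.93 in the other PQ livers, against 5.69, 5.91, 5.61, 5.91 and 6.01 in vehicle livers. Srxn1, sulfiredoxin, which restores oxidised peroxiredoxins, measured 8.88 in replicate 1 and 5.88, 6.01, 6.19 and 5.80 in the other PQ livers, against 6.19, 6.21, 6.31, 6.06 and 6.14 in vehicle livers. Outside replicate 1 only Hmox1 in replicate 4 was above the vehicle range in these 2 genes. Gstm4, a glutathione transferase, measured 7.92, 8.31, 8.63, 8.17 and 8.53 in PQ livers, against 8.90, 8.74, 9.08, 8.68 and 8.70 in vehicle livers. The groups did not overlap, yet the difference of -0.41 (SE 0.13, limma adjusted p = 0.646 without replicate 1) was not called. Nqo1, a quinone reductase, differed by 0.07 (SE 0.21) and Gclc, the catalytic subunit of glutathione synthesis, by -0.17 (SE 0.13) without replicate 1. Osgin1, an oxidative stress response gene, differed by 0.65 (SE 0.27) and was not called, and it was named after its value was seen.

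The superoxide and peroxide scavengers, which remove what redox cycling makes, showed no called member. Of 21 measured, 0 were higher and 0 lower at an unadjusted p under 0.05 in both comparisons. The shares of all probe sets were 5.33% higher and 6.52% lower with all 5 arrays, and 2.39% and 3.4% without replicate 1. The list median was -0.02 with all 5 arrays and 0.00 without replicate 1. Sod1, the cytosolic superoxide dismutase, differed by 0.05 (SE 0.05) without replicate 1. For Sod2, the mitochondrial form, the difference was -0.02 (SE 0.04), and for Cat, catalase, it was 0.00 (SE 0.07). Of 13 measured genes of paraquat reduction and transport 0 were called in either comparison, beside 0.0347% and 0.0116% of all probe sets. At an unadjusted p under 0.05 there were 1 higher and 5 lower with all 5 arrays, beside 5.33% and 6.52% of all probe sets. Without replicate 1 there were 0 in either direction, beside 2.39% and 3.4%. In 1 of the 13 every PQ array was below every vehicle array without replicate 1, beside 1.29% of all probe sets; it was Slc3a2, a subunit of amino acid transporters, named after its value was seen, with a difference of -0.09.

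Metallothioneins, small metal-binding proteins, varied widely within both groups. Mt1 measured 13.59, 11.27, 11.99, 12.35 and 11.13 in PQ livers, against 10.83, 10.73, 10.89, 12.06 and 10.22 in vehicle livers. Vehicle replicate 4 was above 3 PQ arrays, and the difference of 0.74 (SE 0.55) without replicate 1 was not called.

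Several gene lists had a median that moved with replicate 1. With all 5 arrays 28 of 28 acute phase genes and 20 of 20 ER chaperones were above 0, with medians of 0.30 and 0.21, and without replicate 1 it was 20 of 28 and 8 of 20, with medians of 0.09 and -0.03. Of 18 markers of monocytes and macrophages 13 were higher and 0 lower at an unadjusted p under 0.05 with all 5 arrays, where 5.33% of all probe sets were higher. Without replicate 1 there was 1 higher and 1 lower, where 2.39% and 3.4% of all probe sets were. For conjugation enzymes the medians were -0.22 and -0.02, and for bile acid genes -0.20 and 0.03. None of these lists had a called member in either comparison, where 0.0347% and 0.0116% of all probe sets were called.

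Single genes show the values by array. S100a8 and Hsd3b5 were named because replicate 1 stood apart in them, so their split follows from that choice. Psat1 was among those genes too and, like Cdkn1a, in a fixed panel of stress and liver genes. S100a8, a neutrophil protein, measured 9.67 in replicate 1 and 4.11 to 4.85 in the other PQ livers, against 3.66 to 4.46 in vehicle livers. Psat1, an enzyme of serine synthesis, measured 7.84 in replicate 1 and 2.93 to 3.54 in the others, against 2.84 to 3.33 in vehicle livers. Cdkn1a, the p53 target p21, measured 7.67 in replicate 1 and 3.58 to 3.98 in the others, against 3.66 to 3.99 in vehicle livers. Hsd3b5, a male-biased steroid enzyme, measured 7.51 in replicate 1 and 11.70 to 12.28 in the others, against 11.90 to 12.25 in vehicle livers. In these 4 genes the PQ arrays other than replicate 1 overlapped the vehicle arrays.

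**Figure D4:**
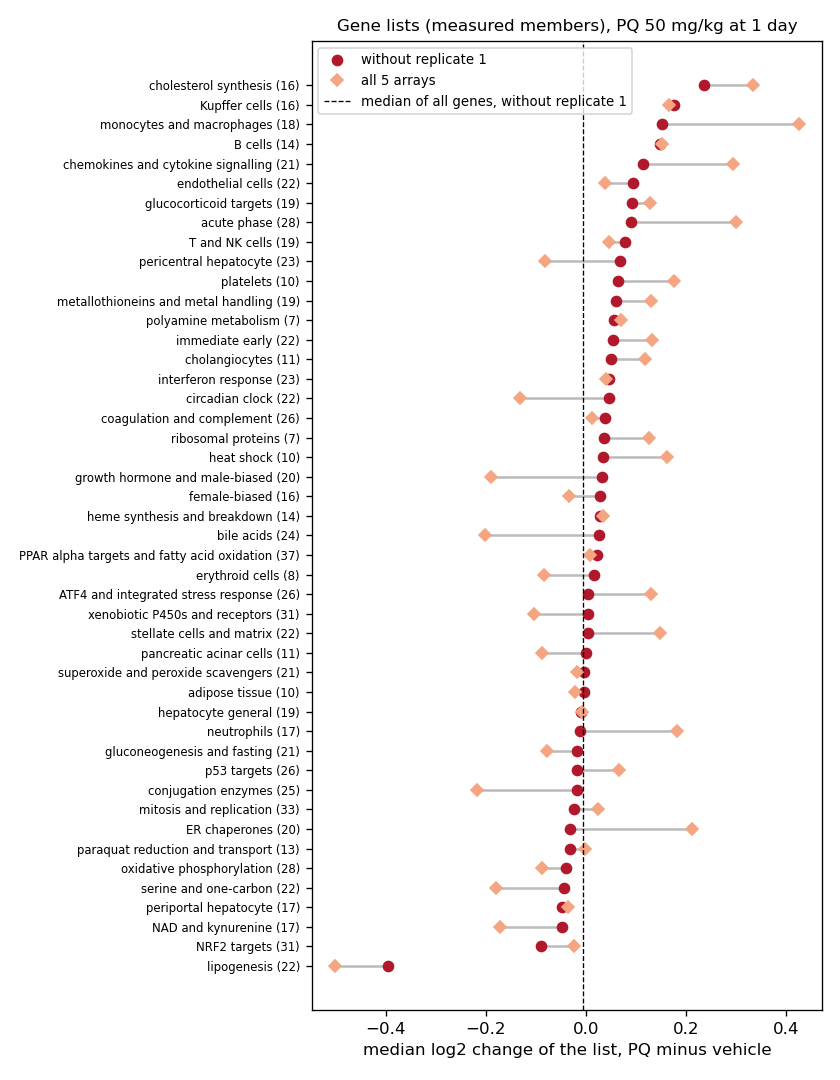
Median log2 change (horizontal axis, PQ 50 mg/kg minus vehicle at 1 day) of each gene list with its number of measured genes; circles leave out PQ replicate 1, diamonds include it, and the dashed line is the median of all genes without replicate 1. Lipogenesis is at -0.40 and -0.50, while acute phase genes stand at 0.09 and 0.30.

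Cyp7a1, the hydroxylase that starts the classic route from cholesterol to bile acids, changed side with replicate 1. It measured 4.14 in replicate 1 and 10.56, 9.67, 11.21 and 10.01 in the other PQ livers, against 9.29, 8.84, 10.07, 9.61 and 9.22 in vehicle livers. The difference was -0.29 (SE 0.67) with all 5 arrays and 0.96 (SE 0.43) without replicate 1, and it was not called in either. Tbx3, a transcription factor of pericentral hepatocytes, measured 5.90 in replicate 1 and 8.97, 8.22, 8.52 and 8.73 in the other PQ livers, against 7.62, 7.49, 8.17, 7.60 and 7.61 in vehicle livers. Without replicate 1 its groups did not overlap, and its difference of 0.91 (SE 0.31, limma adjusted p = 0.664) was not called.

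No marker of Kupffer cells or neutrophils was called. Of all probe sets 0.0347% were called with all 5 arrays and 0.0116% without replicate 1. Of 16 Kupffer cell markers 16 were above 0 without replicate 1, with a median of 0.18. In that comparison 8167 of all 17306 probe sets were above 0. The mean of the 16, as a difference from the vehicle mean, was 0.30, -0.03, 0.14, 0.74 and -0.06 in PQ replicates 1 to 5, against -0.18, -0.11, 0.01, 0.13 and 0.15 in vehicle livers. Replicates 4 and 1 were above every vehicle array, and the other 3 PQ arrays lay within the vehicle range. For 17 neutrophil markers the mean was 1.70 above the vehicle mean in replicate 1 and between -0.13 and 0.40 in the other PQ arrays, against -0.08 to 0.26 in vehicle arrays. Whether these markers had a part in any result above was not tested.

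Among genes that were higher after PQ, none passed the test in either comparison. Enho, which encodes the secreted peptide adropin, measured 8.61, 7.78, 7.87, 8.35 and 7.60 in PQ livers, against 7.13, 7.29, 6.74, 7.33 and 7.06 in vehicle livers. The groups did not overlap, and the difference was 0.93 (SE 0.21, limma adjusted p = 0.0934) with all 5 arrays and 0.79 (SE 0.21, adjusted p = 0.455) without replicate 1. Ms4a4b, a membrane protein of T cells, measured 4.34, 4.33, 4.51, 5.57 and 4.46 in PQ livers, against 3.86, 3.88, 3.48, 3.95 and 4.16 in vehicle livers. Catsperd, a subunit of a sperm ion channel, measured 3.5 in replicate 1 and 4.85, 4.79, 4.78 and 4.66 in the other PQ livers, against 3.97, 3.73, 3.35, 4.09 and 3.72 in vehicle livers. Whether the signals of these 2 genes exceed background was not tested.

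Lower doses were set beside the high dose with the same vehicle arrays, so their differences are not independent. For Cyp2c55 the log2 difference from vehicle was -0.79 at 12.5 mg/kg, -1.05 at 25 mg/kg and -1.45 at 50 mg/kg without replicate 1. For Acaca it was -0.27, -0.48 and -0.77, and for Scd1 it was -0.14, -0.12 and -1.02. The lipogenesis medians were -0.11, -0.23 and -0.40. At 12.5 and 25 mg/kg 0 genes were called, with 718 (4.15%) and 432 (2.5%) at an unadjusted p under 0.05 by limma. Set directly against PQ at 12.5 mg/kg, with no vehicle array involved, PQ at 50 mg/kg had 1 called gene, Dcaf12l1, in both comparisons (0.00578% of probe sets). It measured 5.03, 5.08, 4.96, 4.93 and 4.71 at 50 mg/kg, against 5.56, 5.19, 5.56, 5.31 and 5.42 at 12.5 mg/kg, a log2 change of -0.49 (SE 0.08, limma adjusted p = 0.0128) without replicate 1. Vehicle livers measured 5.09 to 5.22. In that direct comparison Scd1 differed by -0.88 (SE 0.21, adjusted p = 0.517 without replicate 1) and was not called.

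The livers taken 2 days after 50 mg/kg had their own vehicle mice and share no array with the comparison at 1 day. At 2 days 0 genes were called (limma), with 874 (5.05%) at an unadjusted p under 0.05. Cyp2c55 measured 6.28, 7.0, 7.37, 7.42 and 7.0 in PQ livers at 2 days, against 7.90, 8.14, 7.77, 7.86 and 7.42 in vehicle livers at 2 days, a difference of -0.81 (SE 0.29). Fdft1 measured 10.34, 10.35, 10.18, 10.21 and 10.57 in PQ livers, against 9.70, 9.98, 9.84, 9.80 and 9.84 in vehicle livers, a difference of 0.49 (SE 0.12). Cyp51 measured 9.20, 9.20, 9.25, 9.07 and 9.59 in PQ livers, against 8.75, 8.84, 8.80, 9.0 and 8.86 in vehicle livers. Fdft1 and Cyp51 did not overlap on either day, and they were picked for their values. Over all genes whose arrays did not overlap at 1 day without replicate 1, 55.8% of the 224 lower ones were also lower at 2 days, where 49% of all genes were, and 54.5% of the higher ones were also higher, where 51% of all genes were. With all 5 arrays these shares were 54.7% of 128 and 56.2% of 89.

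Fatty acid synthesis genes gave other values at 2 days. Fasn measured 9.96, 10.61, 11.13, 10.70 and 11.03 in PQ livers, against 9.91, 10.67, 9.85, 10.33 and 10.37 in vehicle livers, a difference of 0.46 (SE 0.23), where at 1 day it was -0.90. The Fasn level of vehicle livers also differed between the days. All vehicle livers at 2 days except that at 10.67 were below every vehicle liver at 1 day. Those at 9.85 and 9.91 lay within the range of PQ livers at 1 day. The lipogenesis median was 0.03 at 2 days, and that of cholesterol synthesis was 0.39. The effect at 2 days minus that at 1 day was tested directly and had 0 called genes in both comparisons, with 1106 (6.39%) at an unadjusted p under 0.05 with all 5 arrays and 902 (5.21%) without replicate 1. For Fasn this contrast was 1.35 (adjusted p = 0.782) without replicate 1, so no difference between the days passed the test.

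**Figure D5:**
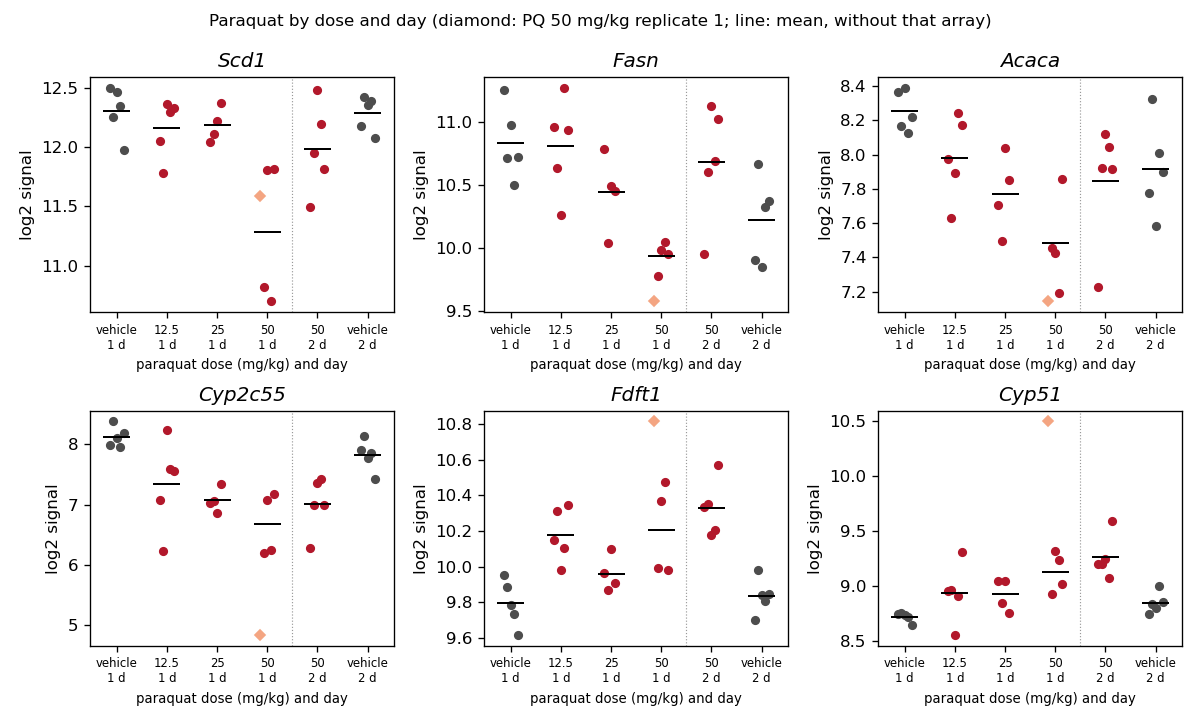
Log2 signal (vertical axes) of 6 genes in each mouse at 1 day, by PQ dose, and at 2 days, PQ 50 mg/kg beside vehicle; the diamond is PQ 50 mg/kg replicate 1 at 1 day and lines are means without it. Scd1, Fasn and Acaca have their lowest group means at 50 mg/kg at 1 day, with Fasn at 9.58 to 10.05 there and 9.96 to 11.13 at 50 mg/kg at 2 days.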

How the data were processed

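The deposited table held log2 values of 17306 probe sets on 69 arrays, and RMA was named per the submitters' processing notes. The annotation of the array gave 16464 probe sets 1 symbol and 842 none. No further normalization was done, and 0 deposited columns were left unused. Groups came from the titles. Replicate numbers follow the order of the records.

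Means per group were fitted with limma 3.58.1 in R 4.3.3 over the 49 arrays of vehicle, PQ and isoniazid mice (48 without PQ replicate 1), since APAP groups vary more within a group. The plan of this fit named the same groups but understated their number of arrays. Tests were two-sided, adjusted by Benjamini-Hochberg over all probe sets, and called at 0.05. On simulated data with all 5 arrays the fit recovered 80.6% of changes of 0.5 log2 units and 98.5% of changes of 1. Without replicate 1 it recovered 86.6% and 100%. The simulated noise was normal and independent, with 1 SD per gene, changes in randomly drawn genes and no array that stood apart. These shares therefore do not tell how many real changes were missed. In the real data with all 5 arrays 28 genes differed by more than 1 log2 unit, and 6 genes were called. Gene lists carried no test. The PQ comparison, gene lists and rules were chosen with earlier results of these data known.

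Named genes were the called genes, filled to 10 in each direction with the genes of smallest p whose arrays did not overlap, 4 genes of each list, a fixed panel of stress and liver genes, the 8 genes farthest up and the 8 farthest down in replicate 1, and called genes of the time and dose contrasts. Only some are printed. Plots were drawn with matplotlib 3.10.9.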

Additional observations from a re-analysis of the deposited data

Results flagged for a closer look

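In 32 genes given by array, each group of 5 was searched for an array far from the rest, and 13 of 64 groups had one, where chance gives about 1 in 20. Of these, 11 were PQ replicate 1. It was the low array for Pklr at 5.78 (next 7.13), Thrsp at 8.95 (next 11.99), Catsperd at 3.5 (next 4.66), Cyp7a1 at 4.14 (next 9.67), Tbx3 at 5.90 (next 8.22) and Hsd3b5 at 7.51 (next 11.70). It was the high array for Cyp51 at 10.49 (next 9.32), Srxn1 at 8.88 (next 6.19), S100a8 at 9.67 (next 4.85), Psat1 at 7.84 (next 3.54) and Cdkn1a at 7.67 (next 3.98). The genes were chosen partly because replicate 1 stood apart in them, so this count is not independent of that choice.

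The other 2 were Ms4a4b in PQ replicate 4, at 5.57 where the next PQ array had 4.51, and Tbx3 in vehicle replicate 3, at 8.17 where the next vehicle array had 7.62.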

How the results depend on the processing

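With all 5 PQ arrays, 6 genes were called, and the count was 0 with only the arrays of both groups, 0 with all arrays of the series, and 89 (43 higher, 46 lower) with the vehicle arrays of both days as 1 group. Leaving out 1 array at a time gave 2 to 100. Without replicate 1, 2 genes were called, and the count was 6 with only the arrays of both groups, 0 with all arrays, 5 with array weights, 1 with quantile normalization repeated, 5 with dim genes left out and 4 with the vehicles of both days. Keeping only title numbers up to 190 also drops replicate 1, so that it is 1 and the same fit for both comparisons, and it called 1 gene. Leaving out 1 further array gave 0 to 7. In a fit of only vehicle and PQ arrays, an alternative chosen after seeing the data, 3 genes were called with all 5 arrays and 0 without replicate 1. The single call between 50 and 12.5 mg/kg was lost (0 called) with only those groups, with all arrays and, without replicate 1, with array weights. The cause was not tested.

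Cyp2c55 was below 0 in all 20 alternatives to the fit with all 5 arrays, 2 of which drop replicate 1 (-2.03 to -1.45, called in 18) and in all 19 without replicate 1 (-1.62 to -1.29, called in 11). Scd1 without replicate 1 lay between -1.20 and -0.83 and was called in 5 of 19, and Acaca between -0.89 and -0.60 and was called in 3. The lipogenesis median without replicate 1 ranged from -0.43 to -0.21, and that of cholesterol synthesis from 0.16 to 0.31. No paired analysis was possible because each array came from its own mouse and replicate numbers only follow record order. The number of arrays limits the precision. Each p-value sets a difference of group means against a spread between mice pooled over all groups of the fit, isoniazid mice included.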

Other observations

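The array labelled APAP 300 mg/kg replicate 1 at 1 day belongs to no comparison above. Its median distance was 33.6 log2 units to the PQ 50 mg/kg arrays and 33.4 to the vehicle arrays, and 84.7 to the other APAP 300 mg/kg arrays. It measured 6.55 for Cyp2c55, 6.46 for Cyp3a44, 9.55 for Ces2e, 7.72 for Acaca, 11.64 for Scd1, 9.94 for Me1 and 10.21 for Fasn. Each of these 7 values is below all 5 vehicle arrays at 1 day, as is each PQ 50 mg/kg array, and the genes were chosen after their values were seen. That holds for PQ replicate 1 too, whose nearest arrays were APAP arrays. By median distance, both it and the array labelled APAP replicate 1 lay far from the other arrays of their own label. Whether low values in these genes are particular to PQ was not tested. The other APAP 300 mg/kg arrays are not given for these genes. For Hmox1 and Srxn1 the array labelled APAP 300 mg/kg replicate 1 measured 5.62 and 6.01, where PQ replicate 1 had 8.11 and 8.88. Whether the labels of single arrays are right was not tested.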
